A study of Mus musculus with 30 samples.

Results

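The regions described here carried H3K27ac, acetylated histone H3 found at active promoters and enhancers, as a wild-type-specific region of mouse microglia, while RNA polymerase II lay over the same bases as a knockout-specific region. A region entered the set if it stood in the cWT list of H3K27ac and shared at least 1 bp with a region of the cKO list for RNA polymerase II (Pol II) or the cKO list for its serine-5-phosphorylated form (Ser5P). These covered sites numbered 1105 of the 6995 regions in the cWT H3K27ac list, or 15.8% (exact 95% interval 14.9% to 16.7%), among 22399 regions in all 10 lists. The other 5890 cWT H3K27ac regions are the set they are compared with. The sites were thus chosen by the authors' H3K27ac calls for cWT and polymerase calls for cKO, so the overlap itself is a description of the choice.

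The cKO microglia came from Mir137loxP/loxP;Tmem119-CreERT2 mice and the cWT microglia from Mir137+/+;Tmem119-CreERT2 mice, all C57BL/6J and all given tamoxifen on 7 consecutive days from an age of 7 to 8 weeks. The labels give the age of every sample as 8 weeks. Tmem119 is a microglial marker gene, and it drives the inducible Cre, so both genotypes had the driver and the drug. Primary microglia were sorted from brain. The assay was CUT&Tag, which uses an antibody to bring a transposase that cuts and tags nearby DNA, with about 100000 cells per genotype. The labels give 3 replicates for each of 2 genotypes and 5 antibodies. Whether the replicates came from separate mice is not stated, and the region lists hold 1 pooled entry per antibody and genotype, so no spread between replicates could be given. Intervals below cover the counting of regions only, and depth is unknown. Of 10 microglial markers, 9 had a cWT H3K27ac region and 2, Tmem119 and Siglech, had a covered site, while none of 11 neuronal markers had a region in any list. A cWT H3K27ac region was also assigned to 2 of 9 astrocyte and 2 of 10 oligodendrocyte markers. The same held for 4 of 8 endothelial and 4 of 14 lymphocyte and border macrophage markers.

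H3K27ac is laid down by acetyltransferases such as CBP and marks open chromatin at promoters and enhancers. Pol II gathers at gene starts, where the kinase of the general factor TFIIH phosphorylates serine 5 of its tail as transcription begins, and it often pauses there before elongation. Pu.1, encoded by Spi1, is an ETS-family factor needed for the myeloid lineage and binds many microglial enhancers. At most active promoters acetylation and polymerase are found together, so a site whose acetylation is listed for one genotype and whose polymerase is listed for the other combines 2 differences with opposite labels.

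The microRNA that the knockout targets is printed with its seed, bases 2 to 8, in capitals, since its pairing word was searched for in the promoters below. The sequence is RefSeq's mature entry on mm10.

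mmu-miR-137-3p: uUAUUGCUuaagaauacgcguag

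Mir137 itself lies at chr3:118433857-118433929. The nearest covered site was 3859.1 kb away, and the nearest cWT H3K27ac region of any kind was 1339.0 kb away.

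In 71 promoter windows of 68 genes, the 250 bases before an annotated start lay wholly inside both a covered site and a cKO polymerase region. Of these, 6 are shown because every printed base was listed for H3K27ac in cWT and for polymerase in cKO. Grn followed from the rule for named genes, and the other promoters were chosen after the values were seen, for their gene's role or a motif. Sequences are from RefSeq's promoter windows on mm10 (GRCm38.p6), run 5′ to 3′ in the direction of the gene and end at the base before the start. Capitals mark the Pu.1 word GAGGAAG, the ETS word CCGGAAG, the AP-1 words TGACTCA and TGAGTCA and the CCAAT box, each searched on both strands and shown as its reverse complement where the match is on the other strand.

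Grn, chr11:102430257-102430506, plus strand: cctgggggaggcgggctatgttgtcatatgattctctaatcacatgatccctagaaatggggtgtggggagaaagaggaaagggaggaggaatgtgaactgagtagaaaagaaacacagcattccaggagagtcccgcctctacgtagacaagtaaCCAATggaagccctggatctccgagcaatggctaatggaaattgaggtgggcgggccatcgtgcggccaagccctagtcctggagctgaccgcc
Man2b1, chr8:85083019-85083268, plus strand: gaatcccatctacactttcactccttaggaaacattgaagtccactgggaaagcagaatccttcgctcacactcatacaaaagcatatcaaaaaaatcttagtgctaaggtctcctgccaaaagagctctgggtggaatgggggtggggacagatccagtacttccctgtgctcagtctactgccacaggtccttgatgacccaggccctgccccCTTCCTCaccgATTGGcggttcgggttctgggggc
Fuca1, chr4:135920476-135920725, plus strand: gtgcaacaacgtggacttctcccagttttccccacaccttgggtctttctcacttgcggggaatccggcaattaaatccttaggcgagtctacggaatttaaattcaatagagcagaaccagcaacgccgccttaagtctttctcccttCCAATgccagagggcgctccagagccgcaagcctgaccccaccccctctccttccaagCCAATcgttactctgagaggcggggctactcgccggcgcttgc
Tfb2m, chr1:179546277-179546526, minus strand: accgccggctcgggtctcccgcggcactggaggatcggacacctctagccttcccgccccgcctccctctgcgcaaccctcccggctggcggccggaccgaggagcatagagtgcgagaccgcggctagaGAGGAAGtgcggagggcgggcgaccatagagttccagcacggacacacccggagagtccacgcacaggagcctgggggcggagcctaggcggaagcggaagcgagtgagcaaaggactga
Palb2, chr7:122132947-122133196, minus strand: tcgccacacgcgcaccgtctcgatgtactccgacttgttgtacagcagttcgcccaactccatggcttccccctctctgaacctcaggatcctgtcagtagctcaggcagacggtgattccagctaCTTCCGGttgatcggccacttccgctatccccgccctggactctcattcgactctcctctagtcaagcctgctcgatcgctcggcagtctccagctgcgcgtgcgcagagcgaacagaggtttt
Snrpc, chr17:27839837-27840086, plus strand: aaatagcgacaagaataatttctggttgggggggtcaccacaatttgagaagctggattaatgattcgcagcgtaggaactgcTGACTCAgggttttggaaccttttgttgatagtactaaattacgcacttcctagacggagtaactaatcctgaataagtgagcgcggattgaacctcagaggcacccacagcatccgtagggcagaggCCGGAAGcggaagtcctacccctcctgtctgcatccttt

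Grn encodes progranulin, a secreted and lysosomal protein whose loss disturbs microglial lysosomes. Its covered site, chr11:102428858-102430684, was 1827 bp wide and shared 467 bp with a cKO Pol II region and 425 bp with a cKO Ser5P region. Man2b1 and Fuca1 encode the lysosomal enzymes that remove mannose and fucose. The Man2b1 site shared 526 bp with a cKO Ser5P region, and the window holds the Pu.1 word on the reverse strand beside a CCAAT box. The Fuca1 site shared 526 bp with a cKO Pol II region and 619 bp with a cKO Ser5P region. Tfb2m, a mitochondrial transcription factor, holds the Pu.1 word on the forward strand. The same site holds the window of Cnst, which runs the other way over nearly the same bases and holds the same word. Palb2 encodes a DNA repair protein, and its covered site also overlapped a cKO Pu.1 region by 467 bp, although its window holds the ETS word and not the Pu.1 word. That site also holds the window of Dctn5, which runs the other way. Snrpc encodes a spliceosomal protein, and its window holds both an AP-1 word and an ETS word. A match is a run of letters and was not tested as a binding site.

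The covered sites divided almost evenly between the polymerase lists. Both Pol II and Ser5P regions overlapped 312 sites (28.2%), Pol II alone overlapped 385 (34.8%) and Ser5P alone overlapped 408 (36.9%). A single polymerase region lay over 777 sites, 2 lay over 307 and 3 lay over 21. The overlaps were broad rather than marginal. Across 714 pairs with a Pol II region, the median overlap was 280 bp, which covered 59.3% of the H3K27ac region and 89.8% of the polymerase region. Across 740 pairs with a Ser5P region, the median overlap was 292 bp, with 63.7% of the H3K27ac region and 91.1% of the polymerase region covered. The midpoints lay a median of 104 bp apart for Pol II and 102 bp apart for Ser5P. The polymerase region lay wholly inside the H3K27ac region in 37.5% of Pol II pairs and 36.8% of Ser5P pairs.

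**Figure D1:**
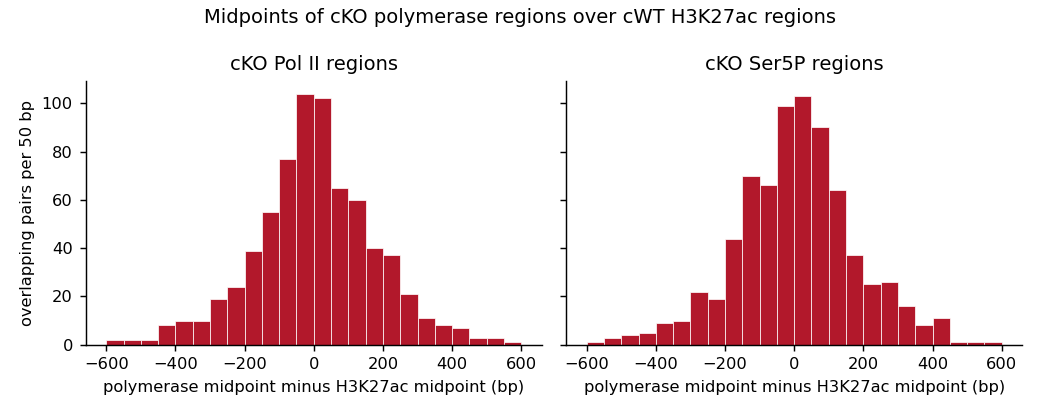
Number of overlapping pairs per 50 bp (vertical axis) by the distance from the midpoint of the cWT H3K27ac region to the midpoint of the cKO polymerase region in bp (horizontal axis), for Pol II on the left and Ser5P on the right. Both distributions peak at the shared centre, with 49.2% of Pol II pairs and 48.8% of Ser5P pairs within 100 bp of each other.

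The rule has an edge at 1 bp. The sites just inside it were nearest Tspoap1 and Aggf1 (1 bp shared each), Hmg20b (4 bp), Lonrf3 (5 bp) and Setbp1 (9 bp). The regions just outside it were nearest Ankrd54 and Ptprs (2 bp away each), Cd34 (8 bp), Shld1 (9 bp) and Eed (13 bp). Few sites sat near that edge: 26 shared under 50 bp and 1059 shared 100 bp or more. Of the other cWT H3K27ac regions, 183 lay within 500 bp of a cKO polymerase region and 4542 lay more than 10 kb from any. The size of the set depends on how lists are trimmed: 729 sites (12.2%) were covered with regions of 300 bp or more in every list, and 361 (10.3%) in the 50% of each list with the smaller p.

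The share of cWT H3K27ac regions under cKO polymerase was lower than that of cKO H3K27ac regions under cKO polymerase. Of the 847 regions in the cKO H3K27ac list, 176 were covered, or 20.8% (18.1% to 23.7%), against the 15.8% above. The interval of each share lay outside that of the other. It was lower in each of 4 classes of width, at 11.7% against 19.5% under 300 bp and 22.1% against 32.3% at 600 bp or more, with intervals that did not overlap in 2 of the classes. The cWT H3K27ac list is the longer one, and its regions took up more of the polymerase lists. Of 4647 cKO Pol II regions, 698 (15%) overlapped a cWT H3K27ac region and 94 (2.02%) a cKO H3K27ac region. Of 6163 cKO Ser5P regions, 729 (11.8%) overlapped a cWT H3K27ac region and 126 (2.04%) a cKO H3K27ac region. Lists for the other antibodies had higher shares under cKO polymerase, 29.5% for cKO H3K4me3, 29.6% for cWT H3K4me3 and 37.8% for cKO Pu.1. The cWT polymerase lists are short, with 394 Pol II and 127 Ser5P regions, and they overlapped 63 cWT H3K27ac regions, or 0.901%. Of the cWT Pol II regions, 54 overlapped a cWT H3K27ac region, or 13.7% (10.5% to 17.5%). Of the cWT Ser5P regions 9 did, or 7.09% (3.29% to 13%). These intervals overlapped those of the cKO lists, 14% to 16.1% for Pol II and 11% to 12.7% for Ser5P.

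The labels give 1 catalogue number to the H3K27ac, Pol II and Ser5P antibodies alike, and a second to those for H3K4me3 and Pu.1. The part of this in the overlaps was not tested.

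**Figure D2:**
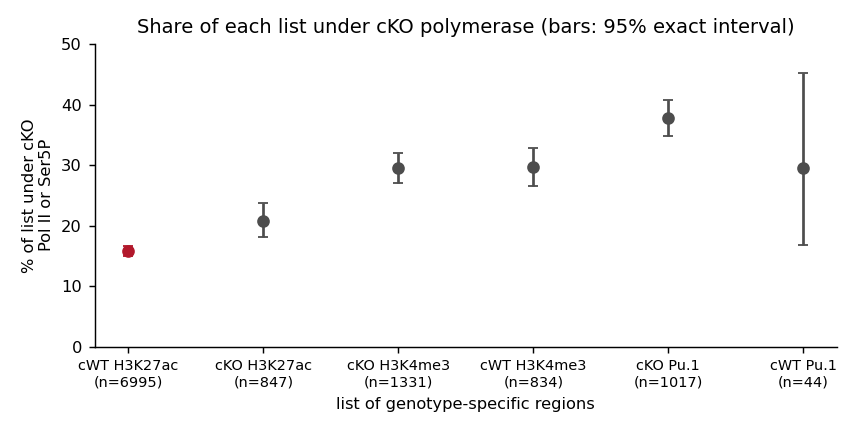
Percent of each list of genotype-specific regions that overlapped a cKO Pol II or cKO Ser5P region by at least 1 bp (vertical axis), with the list and its number of regions on the horizontal axis. Points are shares and bars are exact 95% intervals: cWT H3K27ac stands at 15.8%, below cKO H3K27ac at 20.8% and cKO Pu.1 at 37.8%.

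Covered sites were mostly at gene starts. A region counted as at a start when it overlapped the 2 kb on either side of an annotated start of a protein-coding gene, or of either gene end where no start was annotated. Of the 1105 covered sites, 650 did, or 58.8% (55.9% to 61.7%), against 1453 of 5890 other cWT H3K27ac regions, or 24.7% (23.6% to 25.8%). Over all cWT H3K27ac regions the share was 30.1%. An annotated start lay inside 296 covered sites (26.8%) and 466 other regions (7.91%). Covered sites inside a gene but away from starts made up 25.2% of their set, against 47.9% of the other regions, and sites between genes made up 15.9% against 27.5%.

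The higher share lay within 500 bp of the start, on both sides. On the chromosomes for which the promoter table holds starts, the midpoint lay 1 to 500 bp downstream of the nearest annotated start in 316 of 1080 covered sites (29.3%) and in 569 of 5738 other regions (9.92%). It lay within 500 bp upstream in 154 covered sites (14.3%) and in 251 other regions (4.37%). Beyond 500 and up to 2000 bp downstream the shares were 4.81% of covered sites and 4.03% of other regions, with overlapping intervals.

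**Figure D3:**
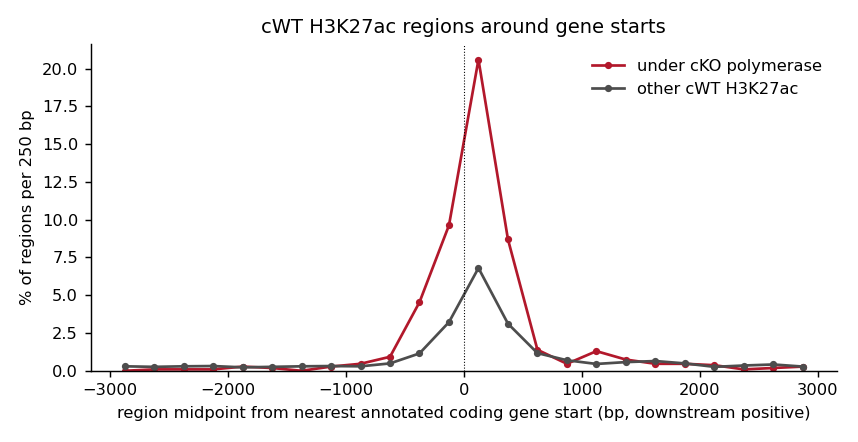
Percent of regions per 250 bp (vertical axis) by the distance of the region midpoint from the nearest annotated coding gene start in bp, downstream positive (horizontal axis). The line for covered sites peaks in the first 250 bp downstream at 20.6%, above the line for other cWT H3K27ac regions, and both lines are near 0 beyond 1 kb.

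The polymerase regions that define the set are themselves often at starts, and the part of this in the result was not tested. Of the cKO Pol II regions over a covered site, 57.7% were at a start, against 50.8% of the remaining cKO Pol II regions. For cKO Ser5P these shares were 61.7% and 53.6%. The cKO H3K27ac regions under cKO polymerase showed a like share, 97 of 176 or 55.1% (47.4% to 62.6%), against 29.4% of the remaining cKO H3K27ac regions. The interval of the cKO H3K27ac share overlapped that of the covered sites, so no difference between the genotypes' acetylation lists was resolved in this measure. Sites under both polymerase forms were at a start in 63.5%, those under Ser5P alone in 60% and those under Pol II alone in 53.8%, and neighbouring intervals in that order overlapped.

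Covered sites were also the wider entries of their list, with a higher authors' score and signal. Their median width was 475 bp, against 429 bp for the other cWT H3K27ac regions. The authors' score had a median of 61 against 37, and the authors' signal a median of 13.1 against 11.5. A wider region has more chance to touch another, so the start shares were set side by side within classes of width. Under 300 bp they were 66.4% of covered sites and 27% of others, and at 600 bp or more they were 63.9% and 25.4%. The authors' p-value per region, for which no source used here names the test, ran the same way: of 4 equal groups by p, the one with the smallest values was covered in 25.8% and the one with the largest in 8.81%. Most of these p-values were large, with a median of 0.71 for covered sites and 0.813 for others. A p under 0.05 was held by 9 covered sites and 12 others, beside 0.3% of the whole list, so that 42.9% of these few regions were covered.

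**Figure D4:**
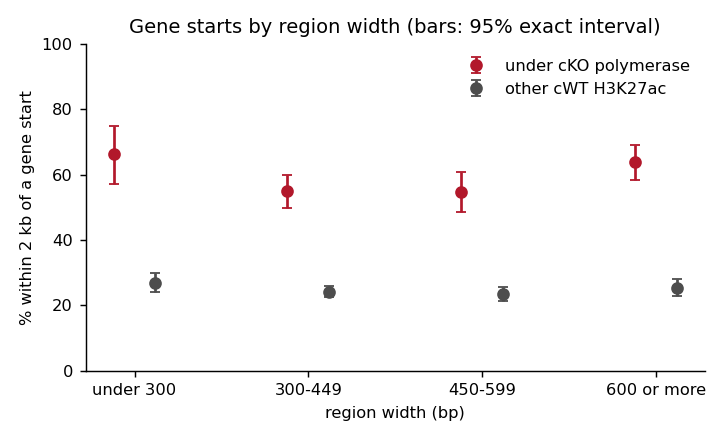
Percent of regions within 2 kb of a gene start (vertical axis) in 4 classes of region width in bp (horizontal axis), with covered sites to the left of the other cWT H3K27ac regions in each class. Bars are exact 95% intervals: covered sites range from 54.7% to 66.4% and the others from 23.4% to 27%, with no overlap of intervals in any class.

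The 423 promoter windows touched by a covered site were rich in G and C. Their median GC content was 63.6% with 19 CpG dinucleotides, against 58.8% and 15 in the 632 windows touched by another cWT H3K27ac region and 55.6% and 10 in all 21263 windows of coding genes in RefSeq's table. The table holds a start for 17492 of 21887 placed coding genes. The TATA word TATAAA was in 3.31% of the covered windows, 5.85% of the windows under other regions and 11.6% of all windows. The CCAAT box, one of the elements printed above, was in 47.3% (42.4% to 52.2%), 37% (33.2% to 40.9%) and 35.4% of the same sets. The ETS word was in 19.1%, 16.9% and 8.98%, with overlapping intervals between covered windows and those under other regions. The CCAAT and ETS words were added after the sequences were seen. The 423 covered windows came from 384 genes and the 632 under other regions from 584. Windows of neighbouring starts can share bases, so these intervals treat as separate some windows that are not. The part of base composition in these shares was not tested.

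The Pu.1 word was in 10.6% of covered windows, 11.2% of windows under other regions and 10.3% of all windows, within overlapping intervals. The AP-1 words were in 1.89%, 2.37% and 4.06%. The word that would pair with the miR-137-3p seed, AGCAATA, was in 2 covered windows (0.473%), 3 windows under other regions (0.475%) and 1.51% of all windows. Each window ends at the base before the start, so this count does not bear on pairing with the transcript from that start. The Pu.1 and ETS words share the ending GGAAG but cannot take the same place on 1 strand.

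Covered sites overlapped cKO Pu.1 regions more often than other cWT H3K27ac regions did. A cKO Pu.1 region lay over 42 covered sites, or 3.8% (2.75% to 5.1%), against 36 others, or 0.611% (0.428% to 0.845%), beside 1.12% of the whole cWT H3K27ac list. The shares were 2.77% and 0.482% at gene starts, and 5.27% and 0.654% away from starts. No covered site overlapped one of the 44 cWT Pu.1 regions, for which the exact interval allows up to 0.333%. Among the other regions 4 did, beside 0.0572% of the whole list, so no difference was resolved for cWT Pu.1. The comparison is not free of the polymerase rule, since 37.8% of cKO Pu.1 regions were themselves under cKO polymerase. With regions of 300 bp or more in every list, the Pu.1 shares were 2.06% of covered sites and 0.324% of others, and in the 50% of each list with the smaller p they were 2.49% and 0.351%.

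Of the 42 covered sites that overlapped a cKO Pu.1 region, 24 lay away from gene starts and 18 at one. Examples chosen after their values were seen follow. A site just beyond an end of Batf, an AP-1 family factor of immune cells, chr12:85710515-85711175, shared 307 bp with cKO Pu.1 and 580 bp with cKO Ser5P. One at the start of Cd180, a regulator of Toll-like receptor signalling, shared 279 bp with cKO Pu.1. Sites nearest Il4ra, the interleukin 4 receptor chain, and Trpm2, a calcium channel that responds to oxidative stress, lay away from starts and shared 123 bp and 239 bp. Psma5, a proteasome subunit, and Stk4, a kinase of the Hippo pathway, had such a site at the start, with 429 bp and 206 bp shared.

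H3K4me3, the mark of active promoters, showed a different pattern by position. A cKO H3K4me3 region overlapped 66 covered sites (5.97%) and 138 other regions (2.34%), beside 2.92% of the whole list. A cWT H3K4me3 region overlapped 53 covered sites (4.8%) and 99 other regions (1.68%), beside 2.17%. For H3K4me3 of either list, the shares at gene starts were 14% of covered sites and 13.1% of others, with overlapping intervals. Away from starts they were 4.84% (3.05% to 7.23%) and 0.992% (0.721% to 1.33%). This comparison too is not free of the polymerase rule, since 29.5% of cKO and 29.6% of cWT H3K4me3 regions were under cKO polymerase.

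**Figure D5:**
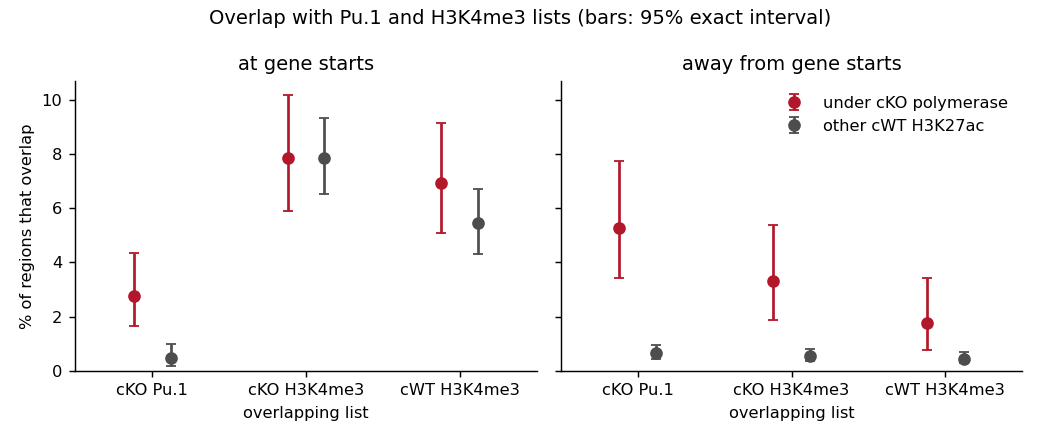
Percent of regions that overlapped a cKO Pu.1, cKO H3K4me3 or cWT H3K4me3 region (vertical axis; lists on the horizontal axis), at gene starts on the left and away from them on the right, with covered sites to the left of the other cWT H3K27ac regions for each list. Bars are exact 95% intervals: cKO Pu.1 stands higher for covered sites in both panels, at 2.77% against 0.482% and at 5.27% against 0.654%, while cKO H3K4me3 stands at 7.85% for both sets at starts.

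Sites with Pu.1, H3K4me3 and polymerase together numbered 5 of 1105. Taken singly, 3.8% of the sites overlapped cKO Pu.1 and 10.2% overlapped H3K4me3 of either list. No matching joint count is given for the other cWT H3K27ac regions, so the 5 are examples only. Of them, 3 were assigned to Selenop, Zcchc2 and the predicted gene Gm15319. The other 2 had no coding gene end within 100 kb, and one of them, chr9:29483903-29484620, lay inside the gene Ntm. Selenop encodes the selenium carrier selenoprotein P. Its site, chr15:3270426-3271347, overlapped a cKO Pu.1 region by 224 bp, a cKO Ser5P region by 261 bp, a cWT H3K4me3 region by 589 bp and a cKO H3K4me3 region by 46 bp. A cWT Ser5P region shared a further 298 bp with it, so this gene start held listed polymerase of each genotype within 1 acetylated region. Zcchc2, a zinc finger gene, had a 1083 bp site at its start that overlapped H3K4me3 regions of both lists, by 369 bp for cKO and 761 bp for cWT.

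Some covered sites also overlapped a cKO H3K27ac region or a cWT polymerase region. A cKO H3K27ac region overlapped 13 covered sites, or 1.18%, beside 0.972% of the whole list. A cWT Pol II region overlapped 28 covered sites (2.53%) and 26 others (0.441%), beside 0.772%. A cWT Ser5P region overlapped 3 covered sites and 6 others, beside 0.129%. Of the 28 sites with a cWT Pol II region, 21 lay under cKO Ser5P without cKO Pol II, so there the 2 polymerase antibodies were listed for opposite genotypes. Another 5 lay under both cKO forms and 2 under cKO Pol II alone, so those sites held Pol II regions of each genotype. Both Pol II lists are genotype-specific, and the part of this in the 21 of 28 was not tested. Regions that overlapped a cKO H3K27ac, cWT Pol II or cWT Ser5P region were left out in 1 setting. This removed 44 covered sites, or 3.98%, against 1.46% of other regions and 1.86% of the whole list.

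Of 21887 protein-coding genes, 972 (4.44%) had at least 1 covered site assigned to them, by the gene end nearest the site's midpoint within 100 kb. A cWT H3K27ac region of any kind was assigned to 4285 genes (19.6%), and 22.7% of those had a covered site. Single sites were the rule, with 895 genes holding 1, 69 holding 2, 7 holding 3 and 1 holding 4. The 47 sites more than 100 kb from any coding gene end stayed unassigned.

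Dhrs3, a reductase that acts on retinaldehyde and so limits retinoic acid, held all 4 of its cWT H3K27ac regions under cKO polymerase. They were 306 to 358 bp wide, and a pair of them abut. The 3 covered sites of Rgs10, a regulator of G protein signalling abundant in microglia, lay inside the gene and were again all of its cWT H3K27ac regions. One of these, chr7:128400662-128401017, was covered over its full 356 bp by a cKO Pol II region. Hdac5, a histone deacetylase, had 3 of its 4 cWT H3K27ac regions covered, and Pag1, a membrane adaptor that restrains Src-family kinases, also had 3 of 4. Megf11, a transmembrane protein of the engulfment receptor family, had 3 of 6. Myc, the growth-promoting transcription factor, had 3 of 4, and the site at its start, chr15:61984869-61985699, shared 171 bp with a cKO Pol II region and 346 bp with a cWT Pol II region. Mfsd12, a lysosomal cysteine transporter, had 3 of 3, of which a pair abut under 1 cKO Pol II region. Bcor, a transcriptional corepressor, had 2 of 4, which shared 281 bp with cKO Ser5P and 392 bp with cKO Pol II, and Dusp1 also had 2. The 3 sites assigned to the predicted gene Gm51877 lie within Sfi1, a gene with near-identical copies in the mouse genome, so their placement is uncertain. Such abutting neighbours, which split 1 stretch into several entries, made up 16 pairs of covered sites and 203 pairs in the whole list.

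Among 36 homeostatic microglial genes, 26 had a cWT H3K27ac region and 6 (23.1% of those) had a covered site, close to the 22.7% over all genes. They were Mef2c, Bin1, Itgam, Siglech, Tmem119 and Itgb5. Mef2c, a transcription factor of microglia and neurons, had 2 covered sites, and its site chr13:83540164-83540697 was covered in full by a cKO Ser5P region and over 470 bp by a cKO Pol II region. Itgam encodes the integrin chain CD11b. Its site shared 266 bp with cKO Pol II and 272 bp with cKO Ser5P. Tmem119, the driver of the Cre in both genotypes, had 1 cWT H3K27ac region, chr5:113800078-113800361, which shared 138 bp with a cKO Ser5P region. Bin1, an endocytic adaptor, had a marginal site that shared 13 bp.

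Of 30 myeloid transcription factor genes, 23 had a cWT H3K27ac region and 5 (21.7%) had a covered site. The single cWT H3K27ac region of Spi1, chr2:91084363-91084677 inside the gene, lay entirely under a cKO Ser5P region, chr2:91084333-91084715, and had a low authors' signal of 3.85. Runx1, a factor of blood development, had a 1227 bp site that reached over 1 of its gene ends and shared 465 bp with cKO Pol II and 272 bp with cWT H3K4me3. Cebpb, an inflammatory regulator, had 292 bp shared with cKO Pol II at its start. Bach1 and Bach2 encode repressors that antagonise AP-1-like factors, and each had a site under both polymerase forms, with 319 bp and 291 bp shared with cKO Pol II.

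The AP-1 and immediate early genes had 6 of 14 (42.9%) with a covered site, out of 21 in the list: Dusp1, Batf, Fosb, Atf3, Fosl2 and Ier5. Dusp1, a phosphatase that switches off stress-activated kinases, had both of its cWT H3K27ac regions covered, by 503 bp of cKO Ser5P at one and 394 bp of cKO Pol II at the other. The site at the start of Fosb shared 266 bp with cKO Pol II, and the site nearest Atf3 shared 444 bp. TGF-beta signalling, which maintains the microglial state, had 3 of 7 (42.9%), from a list of 16. Tgfbr2, a receptor subunit, had 2 sites under cKO Ser5P, sharing 261 and 438 bp. Nrros, which tethers latent TGF-beta on microglia, shared 316 bp with cKO Ser5P, and Tgif1, a corepressor of the pathway, shared 428 bp with cKO Pol II. With so few genes, these shares are counts beside 22.7% and show nothing particular to the lists.

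Genes of NF-kB, inflammasome and cytokine signalling had 4 of 16 (25%), among 34 listed. Nek7, a kinase needed by the NLRP3 inflammasome, had 2 covered sites among 13 cWT H3K27ac regions. The chemokine gene Ccl3, the interleukin 10 receptor gene Il10ra and the cytokine inhibitor gene Socs3 had 1 each assigned, all outside the gene. The Ccl3 and Socs3 sites lay 20490 bp and 19684 bp downstream of the start. The Il10ra site shared 12 bp and the Socs3 site was covered in full. Phagocytosis and lysosome genes had 4 of 17 (23.5%), among 30. Npc1, the cholesterol exporter of lysosomes, had 2 abutting sites at its start under 1 Pol II and 1 Ser5P region of cKO, and a cWT Pol II region shared 288 bp with the wider one. Plcg2, a phospholipase that signals below Trem2, had a site covered in full by cKO Pol II, and Elmo1, an activator of Rac in engulfment, shared 243 bp. Disease-associated microglial genes had 1 of 8 (12.5%), near Cd9, among 20.

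The transcription and Mediator list had 3 of 8 (37.5%), among 24. Med13, a subunit of Mediator's kinase module, had a site beside its start that shared 258 bp with each polymerase form, its relative Med13l had 2 sites, and Ell2, an elongation factor subunit, shared 188 bp with cKO Ser5P. Of 12 genes of the microRNA machinery, 5 had a cWT H3K27ac region and 1 a covered site: Tnrc6c, a scaffold of the silencing complex, with 170 bp shared with cKO Pol II and 511 bp with cWT H3K4me3. Over all gene lists examined, other than the cell markers, there were 37 entries with a covered site, and 24 when genes were assigned within 10 kb.

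Marker genes of other brain cells were also represented. Slc1a3 had 2 covered sites and Slc1a2 had 1, both glutamate transporters and the 2 of 9 astrocyte markers with a cWT H3K27ac region. Mbp, a myelin gene, had 2 sites and was the single one of 10 oligodendrocyte markers with a covered site, of which 2 had a cWT H3K27ac region. Cldn5, a junction gene, was the single one of 8 endothelial markers with a covered site, of which 4 had a cWT H3K27ac region. The Cldn5 site lay 43262 bp upstream of the start and inside no coding gene. No covered site was assigned to any of 14 lymphocyte and border macrophage markers, of which 4 had a cWT H3K27ac region. The part of other cells in these regions was not tested.

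The covered sites with the smallest authors' p-value were led by a 553 bp site nearest Tcp10c, chr17:13305831-13306383, with p = 6.77e-09 in the authors' deposited table, an authors' signal of 60.5 and 459 bp shared with cKO Ser5P. Tcp10c belongs to a family of similar genes, and the site lay 48465 bp upstream of its start, inside no coding gene. The placement of reads at the site was not tested. Next came sites at the starts of Lrr1, Copb2, a coat protein of retrograde vesicles, and Spcs3, a signal peptidase subunit. They were followed by a 1418 bp site near the receptor gene Tnfrsf14, whose value in the authors' deposited table was 0.0326. Lrr1 and Copb2 lay under both polymerase forms.

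Sites were spread over the genome, on 21 chromosomes. Neighbouring covered sites lay a median of 856 kb apart, with 27 of 1084 neighbouring pairs within 1 kb and 48 within 10 kb.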

How the data were processed

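The deposited files are 10 lists of genotype-specific CUT&Tag regions on mm10, 1 per antibody and genotype. The submitters' processing notes name HOMER 4.11, Bowtie2 2.4.4, bedtools 2.30.0 and MACS2 2.2.7.1. The pooling of replicates and the call of genotype-specific regions are not described in the sources used here. The authors deposited, for each region, a p-value, a signal and a score. These were used only within a list, and the test behind the p-value is not stated. Positions count from 1. Overlaps, gene assignment and motif searches used Python 3.11.15, numpy 2.4.6 and pandas 2.3.3, and exact Clopper-Pearson intervals used scipy 1.17.1. The overlap functions were tested on simulated regions.

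Starts came from RefSeq's promoter table. The design spoke of gene ends, used where no start was annotated.

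The sites, gene lists and comparisons were chosen with earlier results of these data known. Named genes were the 10 with most sites (ties broken by the number of antibodies with a region at the gene, then by symbol), up to 4 per list, those with Pu.1 and H3K4me3, Mir137, Spi1, the 5 smallest p-values and the sites at the rule's edge. Man2b1, Fuca1, Tfb2m, Cnst, Palb2, Dctn5, Snrpc, Tmem119, Itgb5, Fosl2, Ier5 and the Pu.1-bound sites were named after their values were seen. The results of 2 gene lists are not reported here.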

Additional observations from a re-analysis of the deposited data

How the results depend on the processing

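Of 107 alternative values over 15 settings, 56 stayed within the main interval or 1.5 times the main count and 51 moved. The covered sites numbered 697 with the Pol II list alone, 720 with Ser5P alone, 729 with regions of 300 bp or more, 361 in the 50% of each list with the smaller p and 9 at a p under 0.05 (a setting added after the data were seen). As shares of the list these were 9.96%, 10.3%, 12.2%, 10.3% and 42.9%, and the share was 11.2% with 50% of the H3K27ac region covered and 12.4% with its midpoint inside a polymerase region. The share under both polymerase lists was 22.5% and 24.3% under those last settings, 23.2% at 300 bp or more and 21.1% with the smaller p. The share at gene starts was 69.5% with the smaller p, 55.5% with a 1 kb window, 63.2% with 5 kb, 65.1% with all genes and 77.8% at a p under 0.05. It exceeded that of other regions in all 13 alternatives run, as the Pu.1 and H3K4me3 shares did in 8 each. The Pu.1 share was 2.06% at 300 bp or more and 2.49% with the smaller p. Median width was 429 bp with 50% covered, 457 bp by midpoint, 519 bp at 300 bp or more, 511 bp with the smaller p and 497 bp when merged within 1 kb. The median distance between midpoints, 89 bp to the nearest polymerase region, was 63.5 bp with 50% covered, 64.8 bp by midpoint, and 100 bp with Pol II or Ser5P alone. Genes with a covered site numbered 626 with Pol II alone and 341 with the smaller p. Entries of the gene lists numbered 24 within 10 kb and 23 by gene span, against 37. The share under both lists cannot be given for 1 list alone. Trimming lists leaves fewer regions to overlap. Otherwise the cause was not tested. No paired analysis was possible because the lists pool the replicates, and no replicate could be left out.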
